A study of Arabidopsis thaliana with 6 samples.

Results

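The library of INA-treated hac1/5 leaves (hac1/5+INA) was compared with that of INA-treated wild type leaves (Col+INA) over every gene model that the deposited table of these libraries lists, in both directions. INA is a synthetic analog of salicylic acid (SA), and hac1/5 is the double mutant hac1-2 hac5-2, which carries alleles of 2 genes for histone acetyltransferases of the CBP type. The table lists 24082 gene models of 21018 genes, out of 25931 gene models of 22183 genes in the tables of the series, and a gene is represented here by its gene model with the most reads. Of the 6 samples described, 4 have reads in these tables: hac1/5+INA, npr1-1+INA (the mutant of the SA co-activator NPR1), Col+INA, and wild type given water (Col). All plants were Arabidopsis thaliana in the Columbia-0 background, 4 weeks old and grown in short days, and leaves were taken 12 h after a spray of 300 µM INA or of water. Each library is a pool of RNA from 3 experiments with 1 library a condition, and no difference below has a replicate check. The hac1/5 and npr1-1 plants given water were not analysed here, so a difference that hac1/5 leaves had before the spray and one that arose after it cannot be told apart.

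Histone acetyltransferases transfer acetyl groups to lysines of histone tails, a mark found at active genes, and plants have several classes of them, of which HAC proteins resemble the animal co-activators CBP and p300. SA accumulates in leaves attacked by biotrophic pathogens, and it acts through NPR1, which has no DNA-binding domain of its own and works with TGA factors at promoters of pathogenesis-related (PR) genes. INA raises the same genes without raising SA. The comparison addresses which transcripts differ between the libraries of INA-treated leaves of the mutant in HAC1 and HAC5 and of wild type. Whether a transcript depends on HAC1 and HAC5 cannot be decided from it, since neither library has a replicate.

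Reads counted on gene models summed to 6944614 in hac1/5+INA, 6698569 in npr1-1+INA, 7146973 in Col+INA and 6920927 in Col. A gene was called when its CPM (reads scaled to a common library total) differed at least 2-fold and its reads in both libraries gave, by a two-sided exact binomial test, an adjusted p (Benjamini-Hochberg over all gene models) of at most 0.01. The test compares libraries and not conditions, and the 95% intervals given with folds cover counting error only. By this rule 801 genes (3.81%) were higher in hac1/5+INA than in Col+INA and 1215 genes (5.78%) were lower. Lower genes differed more: their median fold was 3.57, and 535 of them differed at least 4-fold and 204 at least 8-fold. The higher genes had a median fold of 2.59, with 159 at least 4-fold and 32 at least 8-fold. With edgeR's exact test and an assumed variation between replicates of 0.4, 3 higher and 28 lower genes were called, and most lists below then held no call. Leaf transcripts as a whole were alike, since 82.7% of the 14336 genes averaging at least 10 reads lay within 2-fold. In bulk leaves, fewer cells of a type and less RNA per cell cannot be told apart.

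**Figure D1:**
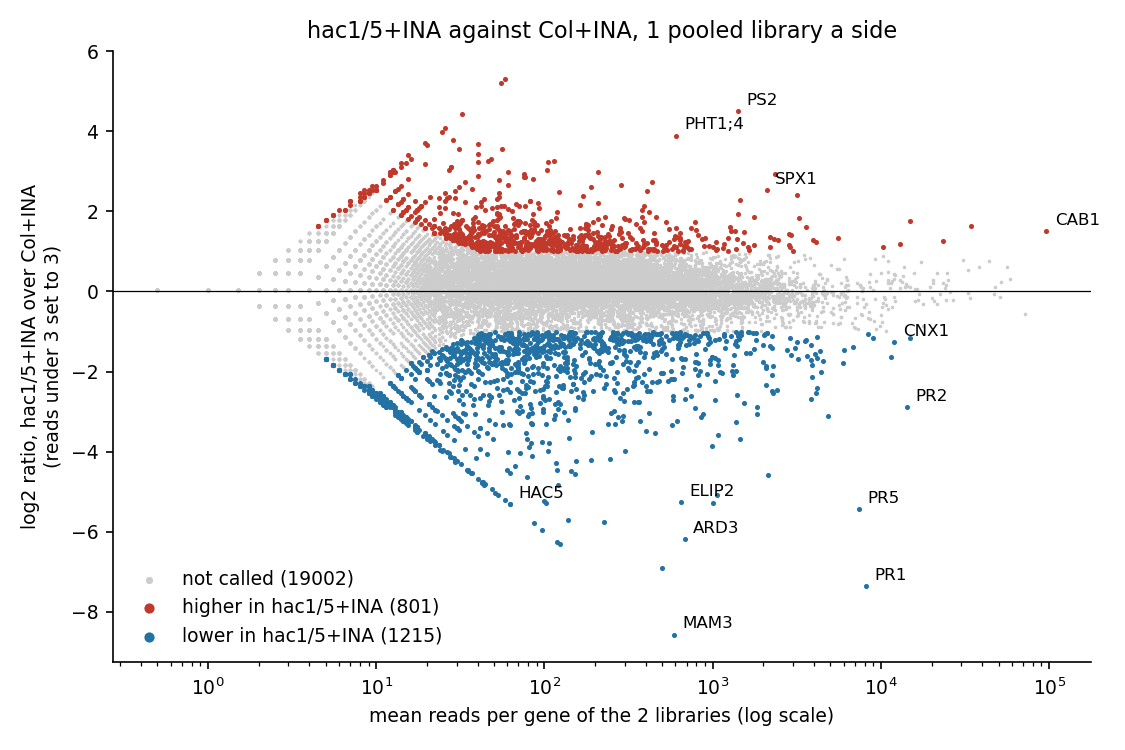
Log2 ratio of CPM in hac1/5+INA over Col+INA (vertical axis, reads under 3 set to 3) against the mean reads of both libraries (horizontal axis, log scale), 1 point per gene. Red points are the 801 genes called higher and blue points the 1215 called lower, and among the named points MAM3 lies lowest and PR1 next, while PS2 lies highest, ahead of PHT1;4.

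The libraries differed along gene length, which touches every count below. Over genes averaging at least 50 reads, the median log2 ratio of hac1/5+INA over Col+INA was -0.07 in the shortest of 5 length classes (88 to 962 bases) and 0.40 in the longest (2321 to 16347 bases). In the longest class 10.2% of genes were called higher and 2.87% lower, and in the shortest 3.16% were called higher and 10.2% lower. Set against Col, the median log2 ratio was 0.55 in the shortest and 0.22 in the longest class for hac1/5+INA, 0.23 and 6.4e-05 for npr1-1+INA, and 0.62 and -0.17 for Col+INA, so the slope was steepest in Col+INA. What made the slope was not tested. When the ratio was centred within 20 length classes, a step added after the data were seen, 491 genes were called higher and 1348 lower, and 476 of the 801 higher genes and 1172 of the 1215 lower genes kept their call. The median log2 ratio over genes averaging at least 10 reads was 0.13, and it was 0.02 with TMM scaling and 0.06 with DESeq2 size factors. With these scalings 592 and 640 genes were higher and 1382 and 1329 were lower.

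**Figure D2:**
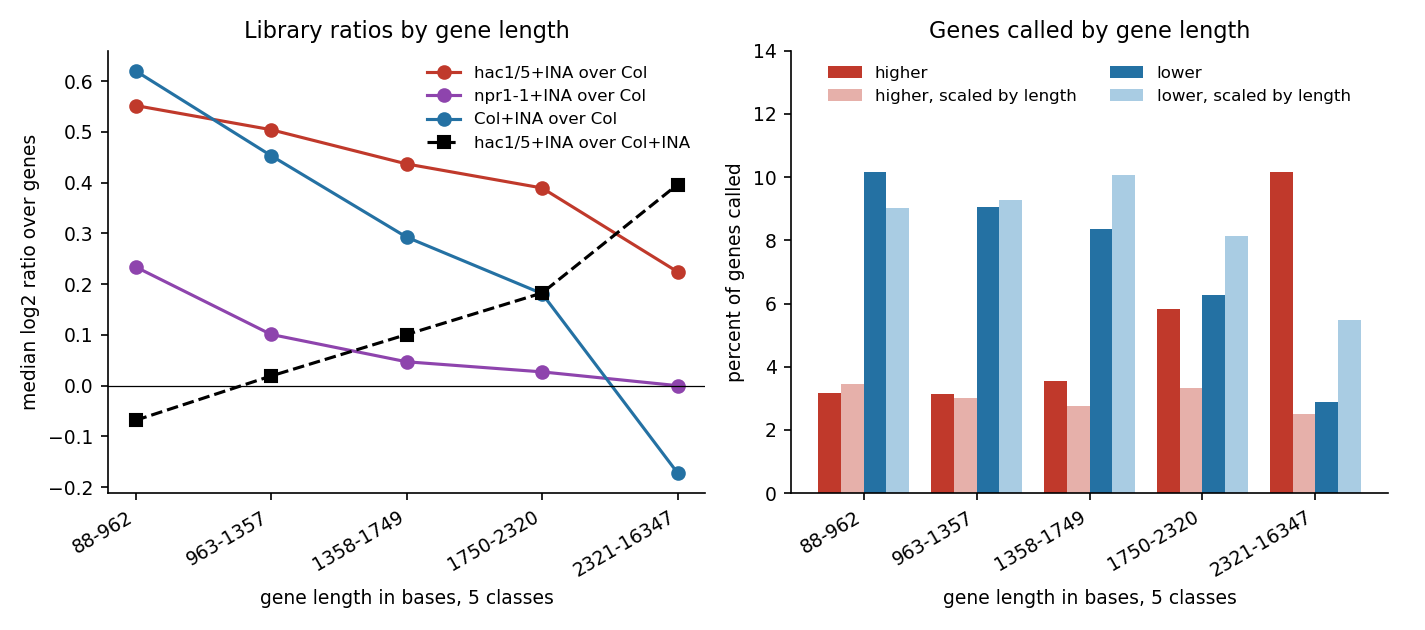
Left, median log2 ratio over genes (vertical axis) in 5 classes of gene length in bases (horizontal axis) for 4 pairs of libraries. Right, percent of genes called in each class before (dark bars) and after (light bars) centring the ratio by length; the dark red bar of genes higher in hac1/5+INA reaches 10.2% in the longest class, against 2.52% after centring.

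The targeted genes were looked at first. HAC5, one of the mutated genes, had 2 reads in hac1/5+INA, 248 in npr1-1+INA, 122 in Col+INA and 272 in Col, and was 59.3-fold lower in hac1/5+INA (95% interval 16.1 to 495). This matches the library's label for HAC5. HAC1, the other mutated gene, had 25 reads in hac1/5+INA, 63 in npr1-1+INA, 28 in Col+INA and 69 in Col, with a log2 ratio of -0.12, so its reads do not check the label: where the reads lie along the transcript relative to the insertion or lesion is not given in the sources used here. Of the 12 listed histone acetyltransferase genes, 1 was higher and 1 (HAC5) lower. The higher one was HAF1, of the TAF1 class, with 636 reads in hac1/5+INA, 623 in npr1-1+INA, 288 in Col+INA and 664 in Col (2.27-fold, 1.97 to 2.62). Its level in hac1/5+INA was near those of npr1-1+INA and Col, and Col+INA stood below the rest; its call was lost when ratios were centred by length. HAC4 (log2 ratio 0.82) and HAC12 (38 reads in hac1/5+INA against 17 in Col+INA, adjusted p = 0.017 in the exact binomial test), also of the CBP type, were not called. After centring by length the log2 ratios were 0.29 for HAC4, 0.67 for HAC12 and -0.66 for HAC1, and none of them was called. HAC2, another gene of the CBP type, had 2 reads in hac1/5+INA and none in the other 3 libraries. Beside HAC5 on chromosome 3, AT3G12970 was also lower, with 1 read in hac1/5+INA, 46 in npr1-1+INA, 19 in Col+INA and 67 in Col.

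The list of PR and defensin genes had the lowest median ratio of the lists examined, and every called gene on it was lower in hac1/5+INA. These were 6 of the 10 listed genes, with a median log2 ratio of -2.90 over the 7 averaging at least 10 reads, against 0.13 over all genes. Defensins as a family did not share this: of 16 plant defensin genes 1 was higher and 1 lower (6.25% each, against 3.81% and 5.78% of all genes). PR1, the standard marker of SA responses, had 96 reads in hac1/5+INA, 2 in npr1-1+INA, 16158 in Col+INA and 4 in Col (164-fold lower, 134 to 202). PR5, a thaumatin-like protein, had 326 reads in hac1/5+INA, 411 in npr1-1+INA, 14583 in Col+INA and 127 in Col (43.5-fold lower, 38.9 to 48.7). In fold, both transcripts lay in hac1/5+INA nearer to Col than to Col+INA, though PR1 was still above both npr1-1+INA and Col. PR2, a beta-1,3-glucanase, had 3310 reads in hac1/5+INA, 244 in npr1-1+INA, 25352 in Col+INA and 49 in Col (7.44-fold lower, 7.18 to 7.72). BG3, a related glucanase, had 398, 18, 872 and 3 reads in the same order of libraries (2.13-fold lower). For PR2 and BG3, as for PR1, hac1/5+INA stood below Col+INA and above both npr1-1+INA and Col. PR3, a basic chitinase, had 0 reads in hac1/5+INA, which allows up to 3 reads or 0.432 CPM, and 12 in npr1-1+INA, 48 in Col+INA and 8 in Col (at least 15.5-fold lower than Col+INA). PDF1.2a, a defensin that marks jasmonate and ethylene responses, had 5 reads in hac1/5+INA, 163 in npr1-1+INA, 38 in Col+INA and 2 in Col (7.38-fold lower, 2.90 to 24.0), and its near-identical copies make this value uncertain. PR4, a hevein-like protein, had 923 reads in hac1/5+INA against 1330 in Col+INA (log2 ratio -0.49) and was not called.

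Genes of systemic acquired resistance, the resistance of distant leaves that depends on pipecolate and its N-hydroxy form, were lower in 5 of 8 cases, and none was higher (median log2 ratio -1.65). The list is a short one of pipecolate and priming genes, and the deposited ontology term systemic acquired resistance gave 2 of 30 genes higher and 0 lower. ALD1, which makes the precursor of pipecolate, had 188 reads in hac1/5+INA, 4 in npr1-1+INA, 796 in Col+INA and 0 in Col (4.11-fold lower). FMO1, which hydroxylates pipecolate, had 82 reads in hac1/5+INA, 0 in npr1-1+INA, 293 in Col+INA and 0 in Col (3.47-fold lower). DLO1, an SA hydroxylase, had 1304, 62, 7078 and 2 reads in that order (5.27-fold lower). These transcripts were thus well above Col in hac1/5+INA and yet below Col+INA. LURP1, a gene needed for resistance to an oomycete, had 2226 reads in hac1/5+INA, 461 in npr1-1+INA, 6468 in Col+INA and 14 in Col (2.82-fold lower). AZI1, a lipid-transfer-like protein of systemic priming, had 9 reads in hac1/5+INA, 10 in npr1-1+INA, 56 in Col+INA and 5 in Col (6.05-fold lower, 2.97 to 13.9). SARD4, the reductase that completes pipecolate, gave 2595 reads in hac1/5+INA against 3156 in Col+INA (log2 ratio -0.24), and DIR1, a lipid-transfer protein of the same process, 124 and 130. Neither was called, and neither was DMR6, another SA hydroxylase, with 6417 reads in hac1/5+INA against 10446 in Col+INA (log2 ratio -0.66).

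Genes that make SA or start its synthesis differed less. Of the 10 listed genes 9 were in the table, 2 were lower and none was higher, with a median log2 ratio of -0.74. EDS5, the exporter of the SA precursor isochorismate from the chloroplast, had 417 reads in hac1/5+INA, 37 in npr1-1+INA, 926 in Col+INA and 44 in Col (2.16-fold lower). PBS3, which joins isochorismate to glutamate, had 494, 45, 1074 and 59 reads in that order (2.11-fold lower). ICS1, the isochorismate synthase itself, had 82 reads in hac1/5+INA against 153 in Col+INA (log2 ratio -0.86) and was called lower only after centring by length. Among the 11 tabled genes of SA perception, including NPR1, its paralogs, NIMIN proteins and TGA factors, 0 were called in either direction. Of all genes 3.81% were higher and 5.78% lower, and at such shares a list this short may hold no call. Only 8 of these genes averaged at least 10 reads, and the median log2 ratio over them was 0.45. NPR1, altered in npr1-1, had 1476 reads in hac1/5+INA, 355 in npr1-1+INA, 1115 in Col+INA and 286 in Col (log2 ratio 0.45). NIMIN1, an NPR1-binding repressor, had 360 reads in hac1/5+INA, 4 in npr1-1+INA, 445 in Col+INA and 0 in Col. NIMIN2, its relative, missed the 2-fold threshold narrowly with 366 reads in hac1/5+INA against 750 in Col+INA (log2 ratio -0.99). NPR1 and NIMIN1 in hac1/5+INA were thus within 2-fold of Col+INA in the same library in which PR1 was 164-fold lower.

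Of 10 listed WRKY factors that respond to SA, 1 (10%) was called higher and 1 (10%) lower, against 3.81% and 5.78% of all genes. WRKY62 had 28 reads in hac1/5+INA, 0 in npr1-1+INA, 111 in Col+INA and 0 in Col (3.85-fold lower), and WRKY54 had 1537, 32, 750 and 5 in that order (2.11-fold higher, a call that was lost with centring by length and with TMM scaling). WRKY70, a close relative of WRKY54, had 7951 reads in hac1/5+INA, 1023 in npr1-1+INA, 7709 in Col+INA and 287 in Col (log2 ratio 0.09). WRKY38 and WRKY53 were not called either, with 393 and 1002 reads in hac1/5+INA against 435 and 1058 in Col+INA. Over the 10 genes of this list the median log2 ratio was -0.15.

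**Figure D3:**
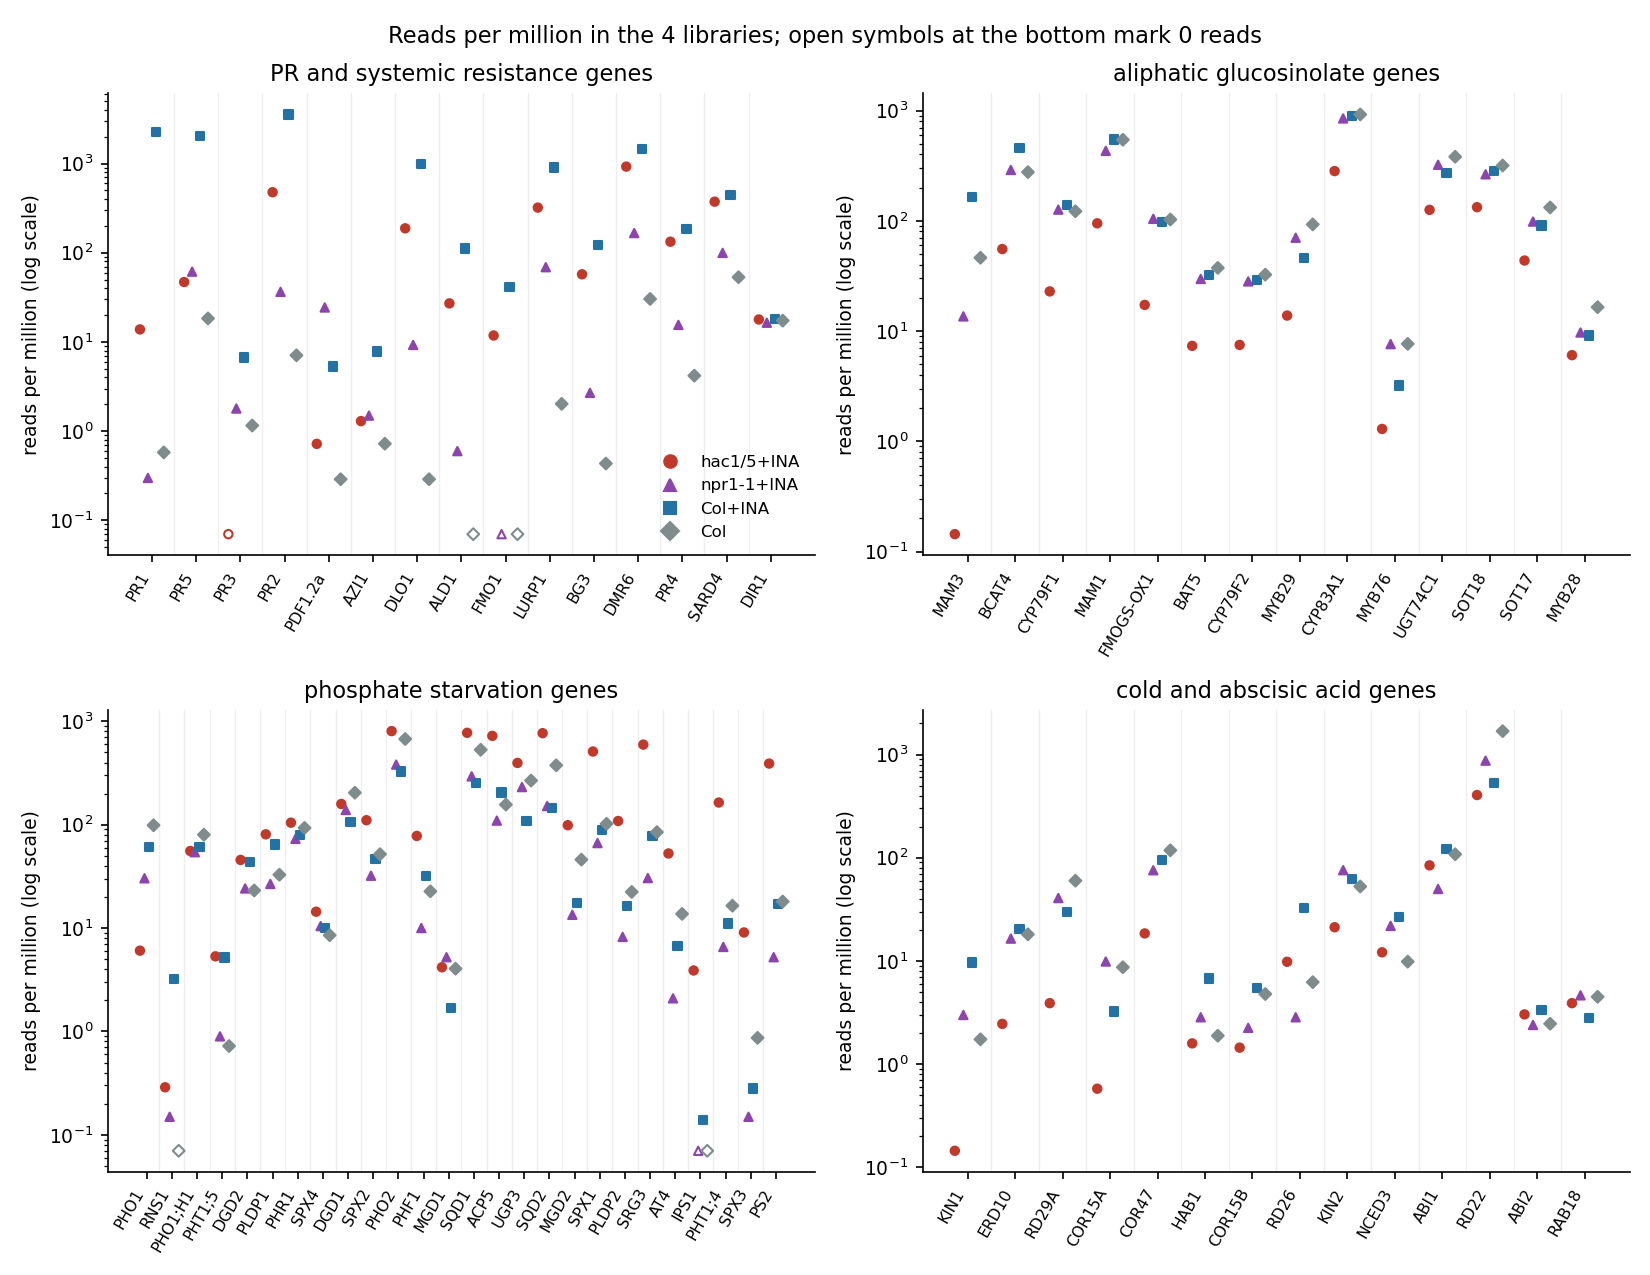
CPM (reads scaled to the library total, vertical axes, log scale) of listed genes averaging at least 10 reads in hac1/5+INA (red circles), npr1-1+INA (purple triangles), Col+INA (blue squares) and Col (grey diamonds), with open symbols at the bottom for 0 reads. PR1 and PR5 lie highest in Col+INA, the glucosinolate genes and most cold genes lie lowest in hac1/5+INA, and PS2, PHT1;4 and SPX1 lie highest in hac1/5+INA.

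Aliphatic glucosinolates are sulfur-rich defence compounds that Arabidopsis makes from methionine, first by chain elongation, then by conversion of the elongated amino acid and last by side-chain change. The list of their genes was drawn up after the largest folds had been seen, and it holds MAM3, which had the largest fold of the comparison, so its counts are a description. Of its 14 genes 12 were lower in hac1/5+INA, none was higher, and the median log2 ratio was -1.84. MAM3, an enzyme of chain elongation, had 1 read in hac1/5+INA, 91 in npr1-1+INA, 1172 in Col+INA and 320 in Col, a ratio of 1139 whose 95% interval began at 204. Its neighbour MAM1, also of chain elongation, had 659 reads in hac1/5+INA, 2885 in npr1-1+INA, 3901 in Col+INA and 3761 in Col (5.75-fold lower). BCAT4, the aminotransferase of the first step, had 385, 1936, 3279 and 1913 reads in that order (8.28-fold lower). MAM1 was thus alike in the other 3 libraries and lowest in hac1/5+INA, and MAM3 and BCAT4 were lowest there too.

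The enzymes that convert the elongated amino acid were also lowest in hac1/5+INA. CYP79F1, which forms the aldoxime, had 159 reads in hac1/5+INA, 846 in npr1-1+INA, 997 in Col+INA and 845 in Col (6.09-fold lower), and its adjacent copy CYP79F2 had 52, 189, 208 and 225 (3.89-fold lower). CYP83A1, the P450 of the next step, had 1961 reads in hac1/5+INA, 5681 in npr1-1+INA, 6385 in Col+INA and 6374 in Col (3.16-fold lower). At the late steps, the glucosyltransferase UGT74C1 and the sulfotransferases SOT17 and SOT18 were lower too, SOT17 by 2.07-fold with 303 reads in hac1/5+INA, 659 in npr1-1+INA, 646 in Col+INA and 915 in Col. FMOGS-OX1, which oxidizes the side chain, had 120, 698, 697 and 711 reads in that order (5.64-fold lower), and BAT5, a plastid transporter of the pathway's keto acids, had 51, 199, 232 and 259 (4.42-fold lower). For CYP79F1, CYP83A1, FMOGS-OX1 and BAT5, the levels of the other 3 libraries lay close together, all above hac1/5+INA. Of the MYB factors that control the pathway, MYB29 was lower (96 reads in hac1/5+INA, 470 in npr1-1+INA, 328 in Col+INA and 642 in Col, 3.32-fold), while MYB28 had 42 reads in hac1/5+INA against 65 in Col+INA and MYB76 9 and 23, and neither was called.

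Indole glucosinolates and camalexin, the tryptophan-derived defence compounds, did not go with them: on a list drawn up at the same time, 2 of 14 genes were higher and 1 was lower, and the median log2 ratio was 0.01. PAD3, the P450 that completes camalexin, had 2412 reads in hac1/5+INA, 3 in npr1-1+INA, 512 in Col+INA and 0 in Col (4.85-fold higher). CYP71A13, an earlier P450 of camalexin with a near-identical paralog, had 1884, 78, 638 and 203 reads in that order (3.04-fold higher). Both camalexin genes were highest in hac1/5+INA of the 4 libraries. MYB34, an activator of indole glucosinolates, had 84 reads in hac1/5+INA, 431 in npr1-1+INA, 213 in Col+INA and 515 in Col (2.46-fold lower). WRKY33, an activator of PAD3, had 2744 reads in hac1/5+INA against 1501 in Col+INA (log2 ratio 0.91), and MYB51, another activator of indole glucosinolates, had 432 and 224 (log2 ratio 0.99), both just short of the 2-fold threshold.

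Of the lists examined, that of the phosphate starvation response held the most genes called higher. Plants short of phosphate raise phosphate transporters and phosphatases and replace phospholipids of their membranes by sulfolipids and galactolipids, under the factor PHR1 and the SPX proteins that sense phosphate status. On a list drawn up after the largest folds had been seen, 19 of 34 tabled genes were higher in hac1/5+INA and 2 were lower, with a median log2 ratio of 1.46 over 26 genes, and 18 and 2 were called after centring by length. Phosphate supply and content were not measured in these files, and a part of either in these values was not tested.

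The promoters of 4 of these genes are shown because the P1BS motif, the PHR1 site GNATATNC, lay in the windows of 12 of the 19 higher genes (63.2%). It lay in those of 14 of all 34 tabled genes of the list (41.2%) and in 4.87% of all 20875 windows of 250 bases. The list is one of the response under PHR1, drawn up after the largest folds had been seen, so these shares are a description. The motif is a palindrome in its fixed letters and was searched on both strands, and its matches are in capitals. The windows are those of PHT1;4 (chr2:16256978-16257227, forward strand), SPX1 (chr5:6802122-6802371, forward strand), SPX3 (chr2:18606160-18606409, forward strand) and SQD2 (chr5:89987-90236, reverse strand), in TAIR10.
PHT1;4: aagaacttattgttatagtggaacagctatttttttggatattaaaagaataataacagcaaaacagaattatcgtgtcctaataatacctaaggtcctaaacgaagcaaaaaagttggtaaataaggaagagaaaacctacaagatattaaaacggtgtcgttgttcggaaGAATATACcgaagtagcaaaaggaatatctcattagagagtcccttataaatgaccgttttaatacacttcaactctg
SPX1: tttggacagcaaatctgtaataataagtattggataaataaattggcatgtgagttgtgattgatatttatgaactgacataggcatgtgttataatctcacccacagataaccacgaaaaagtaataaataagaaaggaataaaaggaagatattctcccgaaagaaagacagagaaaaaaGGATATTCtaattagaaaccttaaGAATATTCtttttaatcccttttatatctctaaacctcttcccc
SPX3: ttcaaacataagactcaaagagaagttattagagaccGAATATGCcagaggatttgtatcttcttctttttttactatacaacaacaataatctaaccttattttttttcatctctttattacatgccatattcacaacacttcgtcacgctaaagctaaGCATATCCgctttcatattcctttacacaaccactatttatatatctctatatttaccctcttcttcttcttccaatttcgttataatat
SQD2: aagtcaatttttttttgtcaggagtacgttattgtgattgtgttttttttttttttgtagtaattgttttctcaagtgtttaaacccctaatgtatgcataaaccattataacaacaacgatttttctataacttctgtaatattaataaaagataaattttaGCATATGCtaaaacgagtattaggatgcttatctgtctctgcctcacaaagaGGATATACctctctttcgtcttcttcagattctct
The PHT1;4 window held 1 match and the other 3 held 2 each, those of SPX1 within 68 bases of the start. P1BS also lay in 9.39% of the windows of the 767 higher genes outside the phosphate list, against 3.46% of those of lower genes. A match is a stretch of letters and says nothing of binding in these leaves.

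Transporters, phosphatases and regulators showed the largest ratios. PS2, a phosphatase of the response, had 2713 reads in hac1/5+INA, 35 in npr1-1+INA, 123 in Col+INA and 125 in Col (22.7-fold higher, 18.9 to 27.4). PHT1;4, a high-affinity phosphate transporter, had 1139 reads in hac1/5+INA, 44 in npr1-1+INA, 79 in Col+INA and 114 in Col (14.8-fold higher, 11.8 to 18.9). SPX1, a sensor and inhibitor of PHR1, had 3549, 445, 633 and 707 reads in that order (5.77-fold higher). In each of these 3 genes hac1/5+INA stood alone, with Col+INA and Col close together. SPX3, a relative of SPX1, had 63 reads in hac1/5+INA, 1 in npr1-1+INA, 2 in Col+INA and 6 in Col, a ratio of 32.4 (8.61 to 274). ACP5, an acid phosphatase, had 5028 reads in hac1/5+INA, 734 in npr1-1+INA, 1462 in Col+INA and 1084 in Col (3.54-fold higher), and PHF1, which helps phosphate transporters leave the endoplasmic reticulum (ER), had 541, 67, 227 and 157 (2.45-fold higher). AT4, a noncoding RNA that sequesters the microRNA miR399, had 366 reads in hac1/5+INA, 14 in npr1-1+INA, 48 in Col+INA and 95 in Col (7.85-fold higher). IPS1, an RNA of the same kind, had 27 reads in hac1/5+INA, 0 in npr1-1+INA, 1 in Col+INA and 0 in Col, a ratio of 27.8 (4.58 to 1138). PHO2, the target of miR399, was also higher, with 5590 reads in hac1/5+INA against 2346 in Col+INA (2.45-fold), but its level in Col was 4673 reads and its call was lost with centring by length.

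Several genes of membrane lipid replacement were among those called higher. SQD2, the last enzyme of sulfolipid synthesis, had 5339 reads in hac1/5+INA, 1016 in npr1-1+INA, 1032 in Col+INA and 2600 in Col (5.32-fold higher), and SQD1, an earlier enzyme of it, had 5384, 1966, 1810 and 3677 (3.06-fold higher). UGP3, the plastid pyrophosphorylase of the same lipid, had 2751 reads in hac1/5+INA, 1550 in npr1-1+INA, 775 in Col+INA and 1851 in Col (3.65-fold higher). In these 3 genes of sulfolipid synthesis Col+INA lay below Col, and hac1/5+INA lay above both. MGD2, a galactolipid synthase, had 687, 90, 125 and 318 reads in that order (5.66-fold higher), and MGD3, its relative, 14, 0, 0 and 1 reads, which is at least 4.80-fold higher than in Col+INA. PLDP2, a phospholipase D, had 755 reads in hac1/5+INA, 55 in npr1-1+INA, 117 in Col+INA and 155 in Col (6.64-fold higher). SRG3, a glycerophosphodiester phosphodiesterase, had 4139, 204, 559 and 587 (7.62-fold higher). Not called were the galactolipid synthases DGD1 (log2 ratio 0.58), DGD2 (0.06) and MGD1 (29 reads in hac1/5+INA against 12 in Col+INA), the phospholipase PLDP1 (log2 ratio 0.32), and the phospholipases NPC4 and NPC5, which had 8 and 1 reads in hac1/5+INA. The 2 genes called lower were PHO1, which loads phosphate into the xylem, with 42 reads in hac1/5+INA, 203 in npr1-1+INA, 432 in Col+INA and 684 in Col (9.99-fold, 7.27 to 14.1), and RNS1, a ribonuclease, with 2, 1, 23 and 0 reads, a ratio of 11.2 (2.76 to 97.8). PHR1 itself had 727 reads in hac1/5+INA, 489 in npr1-1+INA, 572 in Col+INA and 645 in Col (log2 ratio 0.39) and was not called.

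**Figure D4:**
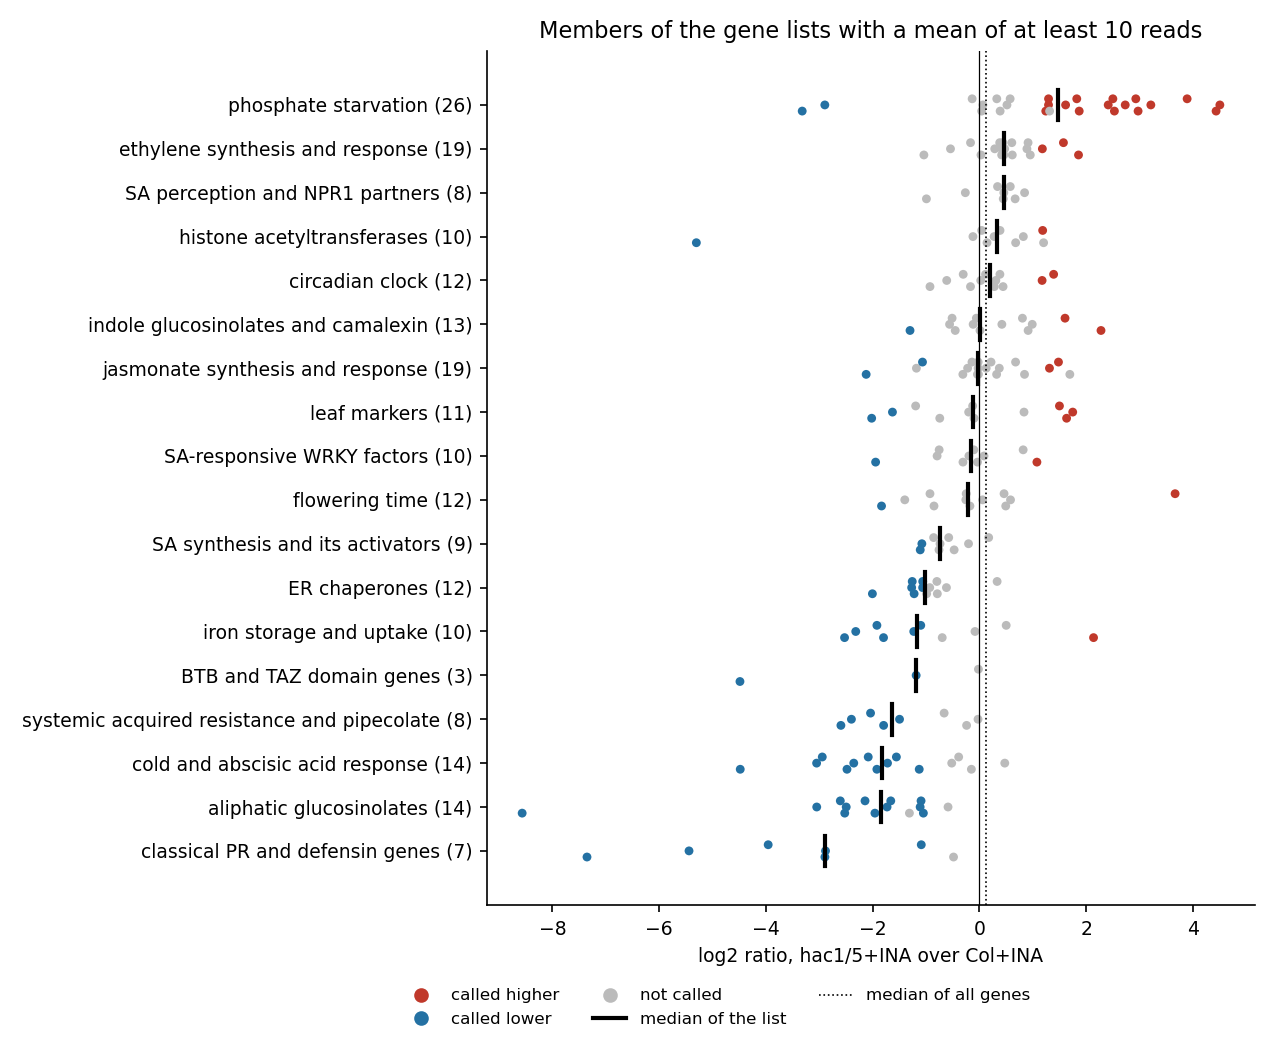
Log2 ratio of hac1/5+INA over Col+INA (horizontal axis) for members of each gene list averaging at least 10 reads (their number in parentheses), called higher (red), called lower (blue) or not called (grey). Black bars are list medians and the dotted line is the median of all genes, 0.13; the phosphate list has its median at 1.46 and the PR and defensin list at -2.90.

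Genes that cold, drought or abscisic acid (ABA) induce were lower: 10 of 18 tabled genes were called lower and none was called higher, with a median log2 ratio of -1.82 over 14 genes. KIN1, a cold-induced gene with a near-identical paralog, had 1 read in hac1/5+INA, 20 in npr1-1+INA, 69 in Col+INA and 12 in Col, a ratio of 67.0 whose interval began at 11.6. RD29A, the usual marker of this response, had 27 reads in hac1/5+INA, 272 in npr1-1+INA, 214 in Col+INA and 414 in Col (7.70-fold lower). The dehydrins ERD10 (17, 110, 145 and 125 reads in that order) and COR47 (128, 506, 674 and 816) were 8.29-fold and 5.12-fold lower. RD29A, ERD10 and COR47 were thus lowest in hac1/5+INA, and Col was not below hac1/5+INA in any of them. COR15A, a chloroplast protein of freezing tolerance, had 4 reads in hac1/5+INA, 66 in npr1-1+INA, 23 in Col+INA and 60 in Col (5.59-fold lower, 1.91 to 22.2). RD26, a NAC factor, had 68, 19, 231 and 43 reads (3.30-fold lower), and NCED3, the rate-limiting enzyme of ABA synthesis, had 84, 146, 189 and 68 (2.19-fold lower). RAB18, a dehydrin that ABA induces, had 27 reads in hac1/5+INA against 20 in Col+INA and was not called.

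Windows of RD29A (chr5:21240599-21240848, forward strand) and KIN1 (chr5:5209648-5209897, forward strand), in TAIR10, are shown because CCGAC, the core of the CRT/DRE element bound by CBF and DREB factors, lay in those of 7 of the 10 lower genes of this list. It lay in those of 9 of all 18 tabled genes of the list, against 14.6% of all windows. Like the phosphate list, this list was put together from genes of a known response, so these shares are a description. Capitals mark the matches.
RD29A: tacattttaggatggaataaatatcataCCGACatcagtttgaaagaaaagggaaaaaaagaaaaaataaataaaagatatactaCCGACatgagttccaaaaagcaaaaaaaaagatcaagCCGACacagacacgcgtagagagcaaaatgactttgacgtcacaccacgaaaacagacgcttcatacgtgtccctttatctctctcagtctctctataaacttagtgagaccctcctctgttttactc
KIN1: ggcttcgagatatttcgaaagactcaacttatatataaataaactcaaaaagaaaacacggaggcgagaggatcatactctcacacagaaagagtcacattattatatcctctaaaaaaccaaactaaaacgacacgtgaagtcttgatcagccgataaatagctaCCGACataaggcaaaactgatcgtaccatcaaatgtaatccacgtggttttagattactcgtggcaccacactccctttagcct
RD29A held 3 matches and KIN1 held 1. Outside the list the motif did not mark lower genes: it lay in 12.6% of their windows, against 14.6% of all windows. The core of the ABA-responsive element, ACGTG, lay in 39.6% of the windows of all 1215 lower genes and in 39.3% of those outside this list, against 23.5% of those of higher genes and 26.0% of all windows. Across the lists searched, its share ran from 33.3% (SA synthesis genes) to 80% (PR and defensin genes, and ER chaperones). In the cold and ABA list it was 77.8%, so ACGTG was not particular to that list. The core of the W box, TTGAC, the site of WRKY factors, lay in 44.9% of lower genes, 49.6% of higher genes and 44.9% of all. For TGACG, the core of sites of TGA factors, the shares were 23.7% of lower genes, 23.8% of higher genes and 21.6% of all, and a TTGACG counts for both TGACG and the W box. The evening element AAATATCT lay in 4.53% of lower genes, 5.22% of higher genes and 4.55% of all.

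Chaperones of the ER, which fold secreted proteins and which SA signalling raises before PR proteins are secreted, were lower in 7 of 15 cases and higher in none, on a list drawn up after the largest folds had been seen (median log2 ratio -1.03, and 10 lower after centring by length). CNX1, a calnexin, had 6905 reads in hac1/5+INA, 2485 in npr1-1+INA, 17140 in Col+INA and 1184 in Col (2.41-fold lower). PDIL1-2, a protein disulfide isomerase, had 2112, 344, 5078 and 143 reads in that order (2.34-fold lower), and CRT1b, a calreticulin, had 5301, 1617, 11399 and 993 (2.09-fold lower). In these 3 genes hac1/5+INA lay between Col+INA and npr1-1+INA. ERDJ3A, a co-chaperone, had 105 reads in hac1/5+INA, 65 in npr1-1+INA, 434 in Col+INA and 36 in Col (4.02-fold lower). BIP1, the main HSP70 of the ER with a near-identical copy, had 3709, 1901, 6597 and 694 reads (log2 ratio -0.79) and was not called.

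Of 15 tabled iron genes 6 were called lower, 1 higher and 8 neither (median log2 ratio -1.17 over 10 genes), again on a list drawn up after the largest folds had been seen. FER1, the leaf ferritin that stores iron, had 1185 reads in hac1/5+INA, 1479 in npr1-1+INA, 7032 in Col+INA and 799 in Col (5.77-fold lower). NAS4, a nicotianamine synthase, had 76, 400, 390 and 582 reads in that order (4.99-fold lower), and FRO2, the iron reductase, had 26, 130, 93 and 166 (3.48-fold lower). For FER1 the library that stood apart was Col+INA, and for NAS4 and FRO2 it was hac1/5+INA. FIT1, the factor that induces iron uptake in roots, had 124 reads in hac1/5+INA, 13 in npr1-1+INA, 29 in Col+INA and 13 in Col (4.40-fold higher). BT1 and BT5, scaffold proteins with a BTB and a TAZ domain, were lower: BT1 had 12 reads in hac1/5+INA, 641 in npr1-1+INA, 277 in Col+INA and 781 in Col (22.4-fold, 12.6 to 43.9), and BT5 had 41, 230, 96 and 58.

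Flowering and hormone lists held calls in both directions, and the clock list held higher calls only. FLC, the repressor of flowering, had 37 reads in hac1/5+INA, 0 in npr1-1+INA, 3 in Col+INA and 7 in Col, a ratio of 12.7 (4.02 to 64.3), and SOC1, a promoter of flowering that FLC represses, had 149, 236, 547 and 211 (3.57-fold lower). These were the calls among 23 tabled flowering genes, 4.35% in each direction, against 3.81% higher and 5.78% lower of all genes. Of 25 jasmonate genes 2 (8%) were higher and 2 (8%) lower. Among them the allene oxide cyclase AOC3 had 301 reads in hac1/5+INA, 5 in npr1-1+INA, 111 in Col+INA and 12 in Col (2.79-fold higher), and the repressor JAZ5 had 29, 41, 130 and 33 (4.36-fold lower). Of 24 ethylene genes 3 (12.5%, against 3.81% of all genes) were higher and 1 lower, and the call of EBF2, which targets ethylene factors for degradation, was lost with centring by length. The factor ERF2 had 591 reads in hac1/5+INA, 30 in npr1-1+INA, 168 in Col+INA and 11 in Col (3.62-fold higher), and ACS6, which makes the ethylene precursor, had 1099, 76, 380 and 65 (2.98-fold higher). ETR2, an ethylene receptor, had 1 read in hac1/5+INA, 4 in npr1-1+INA, 13 in Col+INA and 40 in Col, a ratio of 12.6 (1.90 to 537). Of 16 clock genes 2 (12.5%) were higher: PRR7, with 853 reads in hac1/5+INA, 290 in npr1-1+INA, 335 in Col+INA and 638 in Col (2.62-fold), and ELF3, whose call was lost with centring by length. GI, a clock gene that promotes flowering, had a log2 ratio of -0.93 and was called lower only after such centring.

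Large differences were also found among genes outside the pathway lists. On the lower side, CML41, a calmodulin-like protein, had 1 read in hac1/5+INA, 4 in npr1-1+INA, 246 in Col+INA and 12 in Col, a ratio of 239 whose interval began at 42.5. ARD3 (listed as ARD), an acireductone dioxygenase of methionine salvage, had 18 reads in hac1/5+INA, 0 in npr1-1+INA, 1346 in Col+INA and 0 in Col (72.7-fold lower, 45.8 to 123). Both were thus high in Col+INA alone. A further set was low in hac1/5+INA and high in the other 3: AT4G08300, a nodulin-like transporter gene, had 8, 301, 992 and 813 reads in the order above (120-fold lower), AT1G74670 had 2, 401, 192 and 333, and ATTLL1, a lipase-like gene, had 8, 668, 442 and 579 (53.7-fold lower). GASA1, a gibberellin-regulated small protein, had 5, 38, 271 and 221 (52.7-fold lower). ELIP2, an early light-induced protein that binds chlorophyll under stress, had 32 reads in hac1/5+INA, 371 in npr1-1+INA, 1258 in Col+INA and 579 in Col (38.2-fold lower). In CPM, RBCS2B, a small subunit of Rubisco with near-identical copies, was among the genes that differed most, with 5502 reads in hac1/5+INA, 58612 in npr1-1+INA, 17528 in Col+INA and 44972 in Col (3.10-fold lower), as was the nitrate reductase NIA2, with 9033, 17214, 20820 and 14188 (2.24-fold lower).

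On the higher side, AT5G35935, annotated as a transposable element gene, had 116 reads in hac1/5+INA, 93 in npr1-1+INA, 0 in Col+INA and 1 in Col, which is at least 39.8-fold higher than in Col+INA. Both mutant libraries held this transcript, and both wild type libraries had at most 1 read of it. AT1G23110 had 107 reads in hac1/5+INA, 2 in npr1-1+INA, 3 in Col+INA and 11 in Col, a ratio of 36.7 (12.2 to 181). ATEXPA10, an expansin that loosens cell walls, had 190, 371, 21 and 74 reads in that order (9.31-fold higher). In CPM the largest gains were those of light-harvesting proteins of photosystem II, whose genes are near-identical. CAB1 had 141150 reads in hac1/5+INA, 94072 in npr1-1+INA, 51396 in Col+INA and 187650 in Col (2.83-fold higher), and LHCB1.1 had 51730, 29193, 17165 and 44599 (3.10-fold higher). Their level in hac1/5+INA lay nearer to Col than to Col+INA. AT5G03350, a legume lectin gene, had 32464 reads in hac1/5+INA, 1216 in npr1-1+INA, 14075 in Col+INA and 26 in Col (2.37-fold higher).

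The leaf label was checked against markers. The 11 leaf markers summed to 35241 CPM in hac1/5+INA, 39627 in npr1-1+INA, 18028 in Col+INA and 51623 in Col. Of these markers 3 were higher (CAB1, LHCB1.1 and CAB3) and 2 lower, RBCS2B and the carbonic anhydrase CA1, with 1708 reads in hac1/5+INA, 19333 in npr1-1+INA, 7127 in Col+INA and 17400 in Col (4.05-fold lower). The 2 tabled seed markers of 8 (OLEO1 and SESA3) and the 1 tabled root marker of 4 (BGLU23) had 0 reads in hac1/5+INA. BGLU23 had 20 reads in npr1-1+INA, 4 in Col+INA and 16 in Col, and SESA3 and OLEO1 had 2 and 1 reads in Col+INA and none in npr1-1+INA or Col. Of 6 flower and meristem markers 2 were tabled, and PI, a petal and stamen factor, had 9 reads in hac1/5+INA and 0 in the other 3 libraries, at least 3.09-fold higher than in Col+INA. Reads on chloroplast genes made up 2.50% of all in hac1/5+INA, 4.03% in npr1-1+INA, 2.02% in Col+INA and 2.86% in Col, and 15 of 79 chloroplast genes were higher and 0 lower. These 15 include RPL14 and other ribosomal protein genes, and NDHA and other subunits of the NDH complex of the thylakoid.

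Over 30 gene families, found by words of the deposited descriptions, shares called lower ran up to 37.5% (lipid-transfer proteins) and shares called higher up to 18.5% (light-harvesting proteins, 5 of 27), against 5.78% and 3.81% of all genes. Light-harvesting proteins were called in both directions, since 4 of the 27 (14.8%) were lower. Lipid-transfer proteins, secreted carriers of lipids, had 2 of 48 genes higher and 18 lower (37.5%), with a median log2 ratio of -1.27. LTP4 among them had 5 reads in hac1/5+INA, 2 in npr1-1+INA, 114 in Col+INA and 1 in Col. Of 40 expansins and xyloglucan endotransglucosylases, which remodel cell walls, 3 were higher and 12 lower, such as XTH10 with 14, 12, 198 and 7 reads in the same order. Of 30 beta-1,3-glucanases, which cut fungal and plant glucans, 6 were lower and 0 higher. UDP-glycosyltransferases (22 of 111), MYB factors (15 of 79), heat shock proteins (11 of 63) and P450s (24 of 150) also had lower shares above that of all genes. Cysteine-rich receptor-like kinases had 3 of 37 higher and 7 lower, and 0 higher and 8 lower after centring by length. Among the lower ones was CRK4 with 203 reads in hac1/5+INA, 337 in npr1-1+INA, 2685 in Col+INA and 224 in Col. LTP4, XTH10 and CRK4, each with a large fold, were highest in Col+INA, but their families as a whole need not be: lipid-transfer proteins summed to 1099 CPM in hac1/5+INA, 2493 in npr1-1+INA, 2427 in Col+INA and 3116 in Col, and expansins and xyloglucan endotransglucosylases to 423, 1486, 1168 and 2241. On the other side, 11 of 94 TIR-type immune receptors and 12 of 144 leucine-rich repeat kinases were higher, and 3 and 5 were lower. The median lengths of these families were 3513.5 and 2861.5 bases, and after centring by length 2 of the receptors and 4 of the kinases were higher and 3 and 8 were lower. Of 233 cytosolic ribosomal protein genes 1 was called, and of 51 proteasome genes 0 were called.

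**Figure D5:**
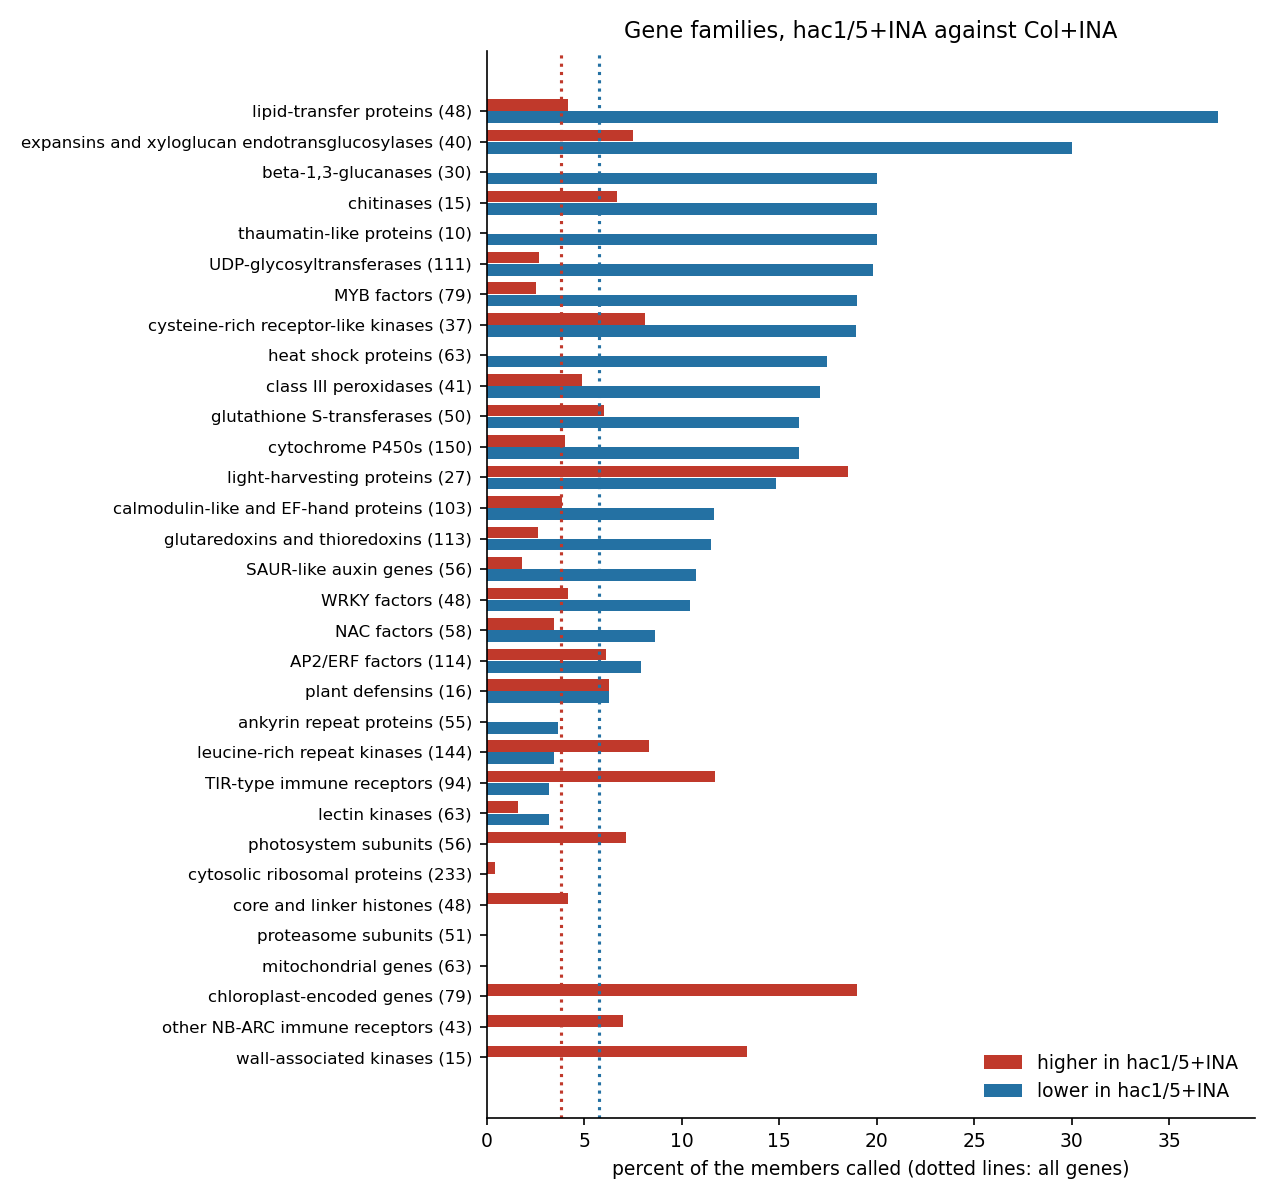
Percent of the members of each gene family (their number in parentheses) called higher (red) and lower (blue) in hac1/5+INA against Col+INA (horizontal axis), with dotted lines for all genes at 3.81% and 5.78%. Lipid-transfer proteins have the longest blue bar, at 37.5%, and chloroplast-encoded genes the longest red bar, at 19.0%.

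The deposited gene ontology terms were counted in the same way. Of all genes 5.78% were called lower and 3.81% higher. Of 213 process terms with at least 20 genes, the highest share called lower was in defense response to incompatible interaction (13 lower and 0 higher of 36 genes). It was followed by glucan metabolic process (7 and 1 of 21), plant-type cell wall modification (8 and 2 of 25), cell death (9 and 1 of 30) and response to reactive oxygen species (17 and 2 of 63). The separate term programmed cell death had 9 lower and 13 higher of 181 genes. The highest shares called higher were in actin filament-based process (4 higher and 0 lower of 20 genes) and cellular response to starvation (17 and 9 of 99). Next came regulation of Ras GTPase activity (3 and 0 of 21), starch metabolic process (5 and 1 of 36) and generation of precursor metabolites and energy (10 and 5 of 80).

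Called genes also differed in structure and position. Genes lower in hac1/5+INA had a median length of 1267 bases and 30.1% of them had no intron, against 1473.5 bases and 19.8% of all genes, while higher genes had a median of 1872 bases and 18.1% without an intron. The slope of library ratios along gene length, given above, bears on these values, and its part in them was not tested. After centring by length, over genes averaging at least 50 reads, 3.46% of the shortest class and 2.52% of the longest were called higher. The shares called lower were 9.02% and 5.49%. A lower gene stood next to another lower gene in 17.4% of cases, against 11.2% of all genes. The longest runs of neighbouring lower genes held 5 genes each. One on chromosome 1 (chr1:23136369-23172105) held FMO GS-OX2, FMO GS-OX3 and FMO GS-OX4, which oxidize glucosinolate side chains, of which FMO GS-OX3 had 204 reads in hac1/5+INA, 759 in npr1-1+INA, 1278 in Col+INA and 1302 in Col (6.09-fold lower). The other, on chromosome 4 (chr4:8925806-8937892), held 5 glutaredoxin-like genes. A run of 3 higher genes on chromosome 1 (chr1:10472280-10479048) held CAB3, LHCB1.1 and CAB1. On the nuclear chromosomes 3.60% to 4.10% of genes were higher and 5.20% to 6.31% lower.

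Levels in water-treated wild type were set beside those of the pair, with the reservation that these comparisons share libraries with the calls. The 1215 lower genes had a median log2 ratio over Col of -1.34 in hac1/5+INA, 0.05 in npr1-1+INA and 0.50 in Col+INA. Lower genes thus include both transcripts that exceeded Col in Col+INA, such as PR1, and transcripts that were below Col in hac1/5+INA, such as MAM1. The 801 higher genes had medians of 1.01 in hac1/5+INA, 0.05 in npr1-1+INA and -0.46 in Col+INA, against 0.38 in hac1/5+INA and 0.24 in Col+INA over all genes averaging at least 10 reads.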

How the data were processed

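Leaf RNA of 4 conditions was measured by RNA-seq, 1 library each. The authors had libraries made and sequenced at BGI, used SOAPaligner/soap2 with at most 2 mismatches for alignment, and deposited counts, whole numbers of reads per gene model that are not normalized, on the TAIR10 build (per the labels). How reads matching several genes were counted, and whether strand was used, is not given in the sources used here, so near-identical, overlapping and antisense genes are uncertain. Columns of the authors' own log2 ratios, p-values and FDR were not used. Of the columns with values per sample, 0 belonged to no sample, and 2 of the 6 samples had reads in no table used here.

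Counts were scaled by the summed reads on gene models. Without replicates no test estimates the spread between samples, so 2 libraries were compared by a two-sided exact binomial test conditional on their sum, and p-values were adjusted (Benjamini-Hochberg) over 24082 gene models, and ratios have exact (Clopper-Pearson) 95% intervals. A count of 0 was set to a floor of 3 reads per library (0.432 CPM in hac1/5+INA, 0.448 in npr1-1+INA, 0.420 in Col+INA and 0.433 in Col), giving a fold of "at least", and 1 to 3 reads gave a ratio with its interval. List medians use counts of at least 3 and genes with a mean of at least 10 reads. Intervals and floors cover counting error only, since PCR copies of a molecule count as reads.

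Genes named were drawn from the histone acetyltransferase genes, the 10 called genes a direction with the largest fold and at least 100 reads, the 5 with the largest difference in CPM, members of 15 lists, and the leading genes of 30 families. Not every gene of these sets is named. Some of the 10 with the largest fold are left out, such as AT2G05540 among lower genes and AT3G23550 among higher genes. The members and lists were chosen with earlier results of these data known. A further 6 lists were drawn up after the largest folds were seen, and members of these, BT1 and genes of runs were named after their values were seen. The pattern for AP2/ERF factors was narrowed after it matched other genes. Promoter windows are 250 bases upstream of the deposited start, read from RefSeq's TAIR10.1 sequence: 20837 of 20847 genes lay within 3000 bases of RefSeq's gene of the same locus, and 760 of 776 single-exon coding models began with ATG and ended with a stop codon when read from it.

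The alternatives were an adjusted p of at most 0.2, a log2 ratio threshold of 1.5, edgeR's exact test with an assumed variation of 0.2 or 0.4, TMM and DESeq2 scaling, a minimum of 10 reads, log2(RPKM + 1), reads summed over gene models, any gene model of a gene, and scaling by length in 20 classes. Work was done in R 4.3.3 (DESeq2 1.42.0, edgeR 4.0.16) and Python 3.11.15 (SciPy 1.17.1, pandas 2.3.3, matplotlib 3.10.9, numpy 2.4.6). Some items are not reported here.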

Additional observations from a re-analysis of the deposited data

How the results depend on the processing

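Against 801 higher and 1215 lower genes, an adjusted p of at most 0.2 gave 1433 and 1706, a log2 ratio threshold of 1.5 gave 317 and 803, log2(RPKM + 1) gave 533 and 1095, and scaling by length, chosen after seeing the data, gave 491 and 1348. With edgeR's exact test and an assumed variation between replicates of 0.2, 108 genes were higher and 490 lower, and at 0.4 the counts were 3 and 28. At 0.4, 76 of 106 list counts moved: lower calls were 0 for systemic resistance (against 5), cold and ABA (10), ER chaperones (7), iron (6) and lipid-transfer proteins (18), 1 for aliphatic glucosinolates (12) and 2 for PR and defensin genes (6), and phosphate genes called higher were 1 (19). The share of called genes that were higher was 39.7%, against 29.99% with TMM scaling, 32.5% with DESeq2 size factors and 26.7% with scaling by length. A minimum of 10 reads gave 837 and 1241, summed reads 825 and 1228, and any gene model 805 and 1220. Of 335 named gene ratios, 8 lost their call and 5 gained one with scaling by length, 3 and 4 with TMM scaling, 2 and 4 with DESeq2 size factors, and 0 and 2 with summed reads, and none turned direction.

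No paired analysis was possible because each group has 1 library. With 1 library a group none was left out, and variation between plants, days or sprays cannot be told apart from the genotype. Depth limits the rare transcripts: 201 of the lower and 63 of the higher genes had 3 or fewer reads in the lower library.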
